A study of Mus musculus with 6 samples.

Results

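Heat shock chaperones of the cytosol and the mitochondria were followed in mouse cumulus-oocyte complexes before and after the hormone signal for ovulation. The 10 genes are Hspa1a, Hspa1b, Hspa8, Hsph1, Hsp90aa1, Hspb1, Hspd1, Hspe1, Dnajb1 and Hsf1, and a probe set was taken when its only gene symbol in the platform annotation was one of them. This gave 22 of 45037 probe sets, for 9 of the 10 genes. Hsf1 had no such probe set and was not analysed here. The genes were chosen by the log2 values of these same arrays, so their levels and changes below are a description and are not evidence for a pattern.

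Each sample was a pool of complexes, the oocyte with its surrounding cumulus cells, from wild type immature females given eCG, which drives follicle growth, for 48 h. A pair of arrays was run for each of 3 conditions, namely no hCG (the ovulatory trigger), 8 h of hCG and 16 h of hCG. The labels place the collection of both hCG groups at the oviduct and that of the group without hCG at the ovary, so site and hormone cannot be told apart. They also call the complexes without hCG expanded, which they do not explain. Whether the 8 h group came from the oviduct was not checked. Nothing in the labels says that both pools of a condition had their own animals, and p-values then measure only the spread between these pools, which may be technical. In pools of mixed cells, fewer cells of a type and less RNA per cell cannot be told apart.

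Heat shock proteins hold unfolded proteins in solution and help them to fold. The inducible HSP70 proteins made from Hspa1a and Hspa1b work with the constitutive HSP70 protein of Hspa8, with J-domain partners such as the product of Dnajb1, which deliver clients and start ATP hydrolysis, and with the nucleotide exchange factor made from Hsph1. Hsp90aa1 encodes the inducible HSP90 of the cytosol, and Hspb1 a small heat shock protein that binds unfolding proteins without ATP. Hspd1 and Hspe1 encode the barrel and the lid of the mitochondrial chaperonin. The transcription factor HSF1, which drives many of these genes after heat or other protein damage, binds heat shock elements, alternating repeats of GAA and TTC. In the mouse, Hsf1 is also a maternal-effect gene of the oocyte.

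The promoters are shown because the genes below differ in their course over the same 3 groups while several share this element. Each sequence is the 250 bases before a start site given by RefSeq in build GRCm38.p6, written along the gene's strand, with matches to GAANNTTC or TTCNNGAA in capitals. Hspa1a and Hspa1b are neighbouring copies on the minus strand of chromosome 17 (chr17:34972157-34972406 and chr17:34959239-34959488). Hspb1 is on the plus strand (chr5:135887669-135887918), Hsph1 on the minus strand (chr5:149636337-149636586, before a start site inside the span of the gene, so that part of the stretch lies in the gene) and Hspe1 on the plus strand (chr1:55087898-55088147).
Hspa1a: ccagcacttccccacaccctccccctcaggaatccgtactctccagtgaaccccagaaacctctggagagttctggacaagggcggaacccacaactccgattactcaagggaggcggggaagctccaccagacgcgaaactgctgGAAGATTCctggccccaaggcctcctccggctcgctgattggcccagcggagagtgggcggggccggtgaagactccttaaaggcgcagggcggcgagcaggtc
Hspa1b: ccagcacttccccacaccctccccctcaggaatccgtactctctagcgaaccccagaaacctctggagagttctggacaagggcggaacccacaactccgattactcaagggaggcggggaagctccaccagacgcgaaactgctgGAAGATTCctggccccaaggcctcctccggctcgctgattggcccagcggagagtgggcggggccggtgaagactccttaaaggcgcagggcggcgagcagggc
Hspb1: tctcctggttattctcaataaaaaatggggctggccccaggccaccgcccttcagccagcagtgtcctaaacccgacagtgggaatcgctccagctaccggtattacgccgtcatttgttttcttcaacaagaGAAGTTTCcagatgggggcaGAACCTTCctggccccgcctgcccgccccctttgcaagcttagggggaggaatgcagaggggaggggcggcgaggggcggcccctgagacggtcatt
Hsph1: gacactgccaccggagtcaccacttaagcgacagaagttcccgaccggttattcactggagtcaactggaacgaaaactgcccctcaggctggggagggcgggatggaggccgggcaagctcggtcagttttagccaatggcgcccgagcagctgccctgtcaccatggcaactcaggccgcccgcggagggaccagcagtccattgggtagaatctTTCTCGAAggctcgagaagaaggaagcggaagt
Hspe1: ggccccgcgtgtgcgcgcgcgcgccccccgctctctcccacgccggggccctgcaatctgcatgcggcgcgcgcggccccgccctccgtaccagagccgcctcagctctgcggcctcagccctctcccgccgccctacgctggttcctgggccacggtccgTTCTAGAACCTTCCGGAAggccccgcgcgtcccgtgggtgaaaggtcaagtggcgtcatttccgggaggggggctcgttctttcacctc

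Windows of 300 bases, the 250 above and the 50 from the start site on, were held for 7 of the 10 genes and searched on both strands. GAANNTTC and TTCNNGAA each read the same on both strands, and successive matches may overlap by a repeat. One or the other was in the window of 6 of these 7 genes, and in that of 17.0% of the 27025 genes of the reference table (15.1% of its 32851 windows). Hspa1a and Hspa1b each had 1 match at −104 to −97, counted from the start site as 0, and their windows were identical at 296 of 300 aligned bases (98.7%). Hspb1 had 2 separate matches, at −117 to −110 and at −97 to −90.

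The longer form with 3 repeats, GAANNTTCNNGAA or TTCNNGAANNTTC, was in windows of 3 of the 7 genes and of 0.662% of all genes of the table (0.603% of windows). Hspe1 had a run of repeats from −89 to −72. Hspd1 lies beside Hspe1 in the opposite orientation, and 1 of its 2 windows shared 285 bases with the Hspe1 window, so the same run counted for both genes. In the Hsph1 window used here the longer form lay at 36 to 48, beyond the stretch printed above. The 2 windows of Dnajb1, 1 of them inside the span of the gene, held neither form. Only exact letters were searched, so runs with an imperfect repeat were not counted for any gene. A match is only a description of the sequence.

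Values are log2 intensities as deposited, 1 per probe set and array. Changes are differences of log2 group means ± SE from 1 limma fit to all 6 arrays, with n = 2 arrays per group. A probe set or gene is "called" when its adjusted p (Benjamini-Hochberg over the 27022 probe sets tested) was under 0.05. Of the 22 probe sets, 20 were tested, and 2 of Hsp90aa1 were too dim, with means of 5.25 and 4.77 over the 6 arrays, under the limit of 5.62. The 9 genes are counted by their brightest probe set.

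At 8 h against no hCG, 4 of the 9 genes were called upward (Hspa1a, Hspa1b, Hspb1 and Hsph1) and 0 downward, where 16.9% of all 13559 genes tested were called upward and 20.5% downward. At 16 h against 8 h, 5 were called downward (the same 4 and Dnajb1) and 0 upward, with 11.8% of all genes called upward and 9.12% downward. At 16 h against no hCG, 3 were called downward (Hspa1a, Hspa1b and Dnajb1) and 0 upward, with 20.8% of all genes called in each direction. Of all probe sets tested, 33.9%, 18.2% and 37.3% were called in these 3 comparisons. Hspa1a and Hspa1b count as 2 genes here, although their probe sets may read each other's signal. The contrasts share arrays, and the choice of the genes used these values, so nothing is read from the counts. At an unadjusted p under 0.05 limma gave 4, 0 and 1 genes upward and 0, 5 and 4 downward. The median change of the 9 genes was 0.21, −0.66 and −0.24 in turn, beside −0.02, 0.01 and −0.02 for all genes tested.

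**Figure D1:**
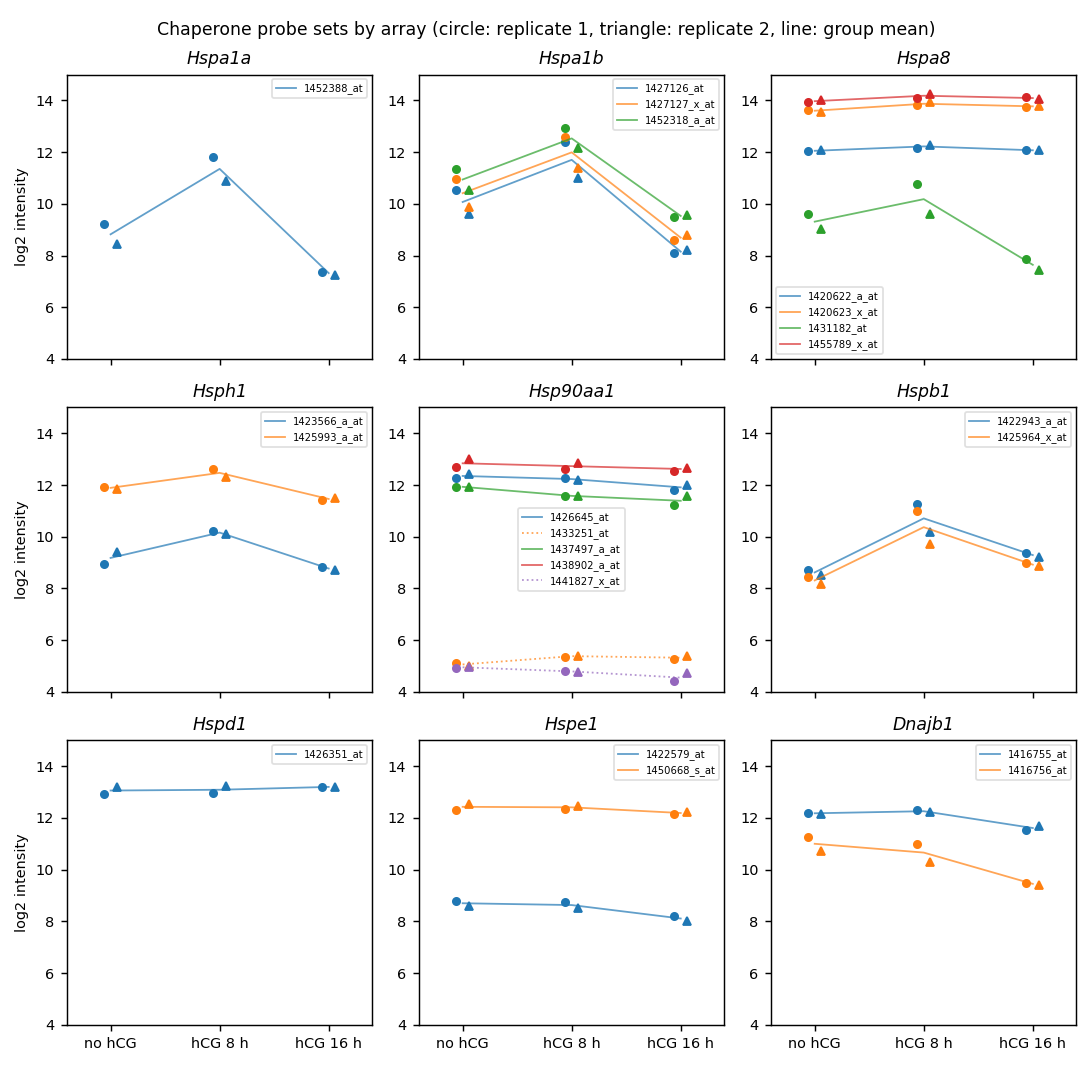
Log2 intensity (vertical axis) of each chaperone probe set on every array, with 1 panel per gene, 1 colour per probe set, circles for replicate 1, triangles for replicate 2, lines through group means and dotted lines for the 2 dim probe sets. Hspa1a, Hspa1b and Hspb1 peak at 8 h with wide gaps between the arrays of that group, while Hspd1 stays between 12.93 and 13.23.

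The inducible HSP70 genes had the widest course. Hspa1a (chr17:34969359-34972156) stood at 9.20 and 8.45 on the arrays without hCG, at 11.81 and 10.90 at 8 h and at 7.38 and 7.26 at 16 h. The 3 groups did not overlap, with both 8 h arrays highest and both 16 h arrays lowest. The level at 8 h was 2.53 ± 0.31 above that without hCG (5.77-fold), and at 16 h it was 4.03 ± 0.31 below that at 8 h (16.3-fold lower). The level at 16 h was also lower than without hCG, with a change of −1.50 ± 0.31.

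Hspa1b (chr17:34956429-34959238) was read by 3 probe sets, which kept the same order of groups. Its brightest probe set had 11.35 and 10.53 without hCG, 12.93 and 12.14 at 8 h and 9.49 and 9.57 at 16 h, again without overlap. Across the 3 probe sets the change at 8 h against no hCG lay between 1.58 and 1.63, with SEs of 0.30 to 0.41, and the change at 16 h against 8 h between −3.55 and −3.01. At 16 h against no hCG the 3 changes were −1.92, −1.72 and −1.41. The last call of the brightest probe set was lost without replicate 1 of the 16 h group (−1.37). Hspa1a and Hspa1b are nearly identical copies, so signal of one may be read by probe sets of the other, and their values are uncertain as separate measures.

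The small heat shock protein gene Hspb1 (chr5:135887919-135889563) followed another course after 8 h. Its brightest probe set had 8.70 and 8.53 without hCG, 11.25 and 10.18 at 8 h and 9.36 and 9.22 at 16 h. Both 16 h arrays lay between the other 2 groups. The change was 2.10 ± 0.29 at 8 h against no hCG (4.27-fold) and −1.43 ± 0.29 at 16 h against 8 h, and the other probe set gave 2.06 ± 0.33 and −1.44 ± 0.33. At 16 h against no hCG it was 0.67 ± 0.29, with groups that did not overlap but no call. It was called, with the same size, when only those 2 groups were in the fit. The call at 16 h against 8 h was lost when either 16 h array was left out, with changes of −1.50 and −1.36.

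Hsph1 (chr5:149616843-149636498), the exchange factor gene, had a smaller change of the same order. The brightest of its 2 probe sets had 11.94 and 11.84 without hCG, 12.63 and 12.31 at 8 h and 11.43 and 11.48 at 16 h, so all 3 groups were separate. The change was 0.58 ± 0.16 at 8 h against no hCG (1.50-fold), −1.01 ± 0.16 at 16 h against 8 h and −0.43 ± 0.16 at 16 h against no hCG, the last not called. The dimmer probe set gave 0.98 ± 0.18, −1.39 ± 0.18 and −0.41 ± 0.18. By the brightest probe set, the call at 8 h was lost after quantile normalization (0.47). It was also lost when replicate 2 of the no hCG arrays (0.53) or replicate 1 of the 8 h arrays (0.42) was left out.

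Dnajb1 (chr8:83608175-83612653), the J-domain partner gene, was lower at 16 h than in both other groups. Its brightest probe set had 12.21 and 12.16 without hCG, 12.30 and 12.22 at 8 h and 11.52 and 11.70 at 16 h, so the 16 h arrays lay below all others. The change was 0.08 ± 0.15 at 8 h against no hCG, −0.66 ± 0.15 at 16 h against 8 h and −0.58 ± 0.15 at 16 h against no hCG. The dimmer of its 2 probe sets gave −0.34 ± 0.25, −1.21 ± 0.25 and −1.55 ± 0.25. The call at 16 h against 8 h was lost when either 8 h array or the first 16 h array was left out, where the change lay between −0.70 and −0.57. That at 16 h against no hCG was lost without the first 16 h array (−0.49), where 1 of the 9 genes kept a call in that comparison.

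The constitutive HSP70 gene Hspa8 (chr9:40801276-40805202) had 4 probe sets that disagree. The 3 brightest had no called change, and the first of them had 13.94 and 14.00 without hCG, 14.10 and 14.25 at 8 h and 14.12 and 14.05 at 16 h. Its change at 8 h against no hCG was 0.21 ± 0.15 (95% interval −0.13 to 0.55) and at 16 h against 8 h −0.09 ± 0.15 (−0.43 to 0.25). The dimmest probe set had 9.60 and 9.02 without hCG, 10.78 and 9.59 at 8 h and 7.85 and 7.44 at 16 h. There the arrays without hCG and at 8 h overlapped, the change at 16 h against 8 h was −2.54 ± 0.35, and that at 16 h against no hCG −1.66 ± 0.35. Which transcript the dimmest one reads was not tested.

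Hsp90aa1 (chr12:110691036-110696395), the cytosolic HSP90 gene, had no called change by its brightest probe set. It had 12.69 and 13.00 without hCG, 12.62 and 12.84 at 8 h and 12.56 and 12.67 at 16 h, with overlap between groups. The change at 8 h against no hCG was −0.11 ± 0.17 (95% interval −0.49 to 0.27), and at 16 h against no hCG −0.23 ± 0.17 (−0.61 to 0.16). The other 2 tested probe sets had changes of −0.44 ± 0.16 (not called) and −0.53 ± 0.17 (called) at 16 h against no hCG.

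The mitochondrial pair had no called change by its brightest probe sets. Hspd1 (chr1:55077833-55088243) had 12.93 and 13.19 without hCG, 12.95 and 13.23 at 8 h and 13.19 and 13.21 at 16 h, with overlapping groups. Its change at 8 h against no hCG was 0.03 ± 0.17, with a 95% interval of −0.35 to 0.41, and at 16 h against 8 h 0.11 ± 0.17 (−0.27 to 0.49). Hspe1 (chr1:55088148-55091317), whose promoter run is printed above, had 12.31 and 12.54 without hCG, 12.33 and 12.48 at 8 h and 12.16 and 12.22 at 16 h on its brighter probe set. Its changes were −0.02 ± 0.16 at 8 h against no hCG (−0.38 to 0.34) and −0.22 ± 0.16 at 16 h against 8 h (−0.58 to 0.14). The dimmer probe set was lower at 16 h than without hCG by a called change of −0.59 ± 0.17. Changes within these intervals are not excluded.

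**Figure D2:**
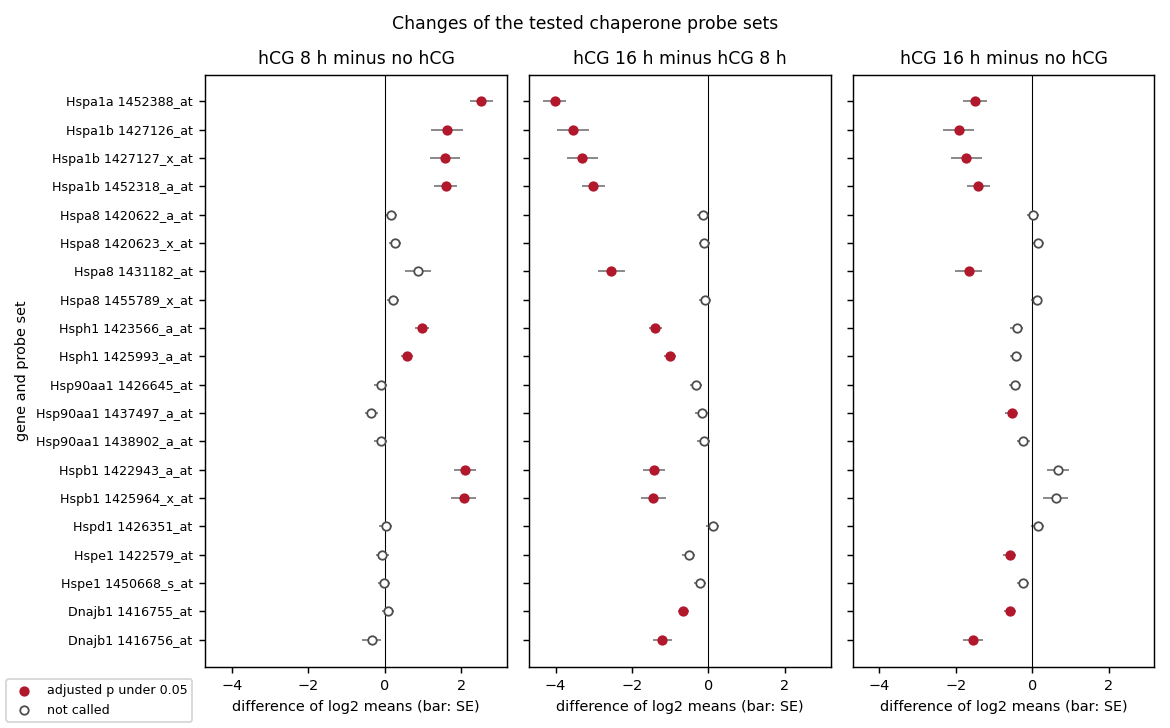
Differences of log2 group means (horizontal axis, bars are SE) of the 20 tested chaperone probe sets in the 3 comparisons, with filled points at an adjusted p under 0.05. The Hspa1a and Hspa1b points lie between 1.58 and 2.53 at 8 h against no hCG and between −4.03 and −3.01 at 16 h against 8 h, while Hspd1 lies within 0.14 of 0 throughout.

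Between the 2 arrays at 8 h, 7 of the 20 tested probe sets differed by more than the 99th percentile of all tested probe sets (0.71). They were the probe set of Hspa1a, all 3 of Hspa1b, both of Hspb1 and the dimmest of Hspa8. Replicate 1 was the higher array in each, by 0.79 to 1.37. Without hCG, replicate 1 was again the higher array for Hspa1a (0.74) and for the probe sets of Hspa1b (0.82 to 1.08), at the 95.5th to 99.2nd percentile, and Hspb1 differed by 0.18 and 0.29.

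At 16 h the Hspa1a, Hspa1b and Hspb1 probe sets differed between arrays by 0.08 to 0.19 in size. None of the 20 passed the 99th percentile there (0.80). Over all tested probe sets the median difference came to 0.22 without hCG, 0.15 at 8 h and 0.17 at 16 h. Hspd1, Hspe1 and the 3 brightest Hspa8 probe sets stayed at or under 0.28 in every group. The change of Hspa1a at 8 h against no hCG ranged from 2.08 to 2.98 when each array was left out in turn, and that of Hspb1 from 1.56 to 2.63.

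**Figure D3:**
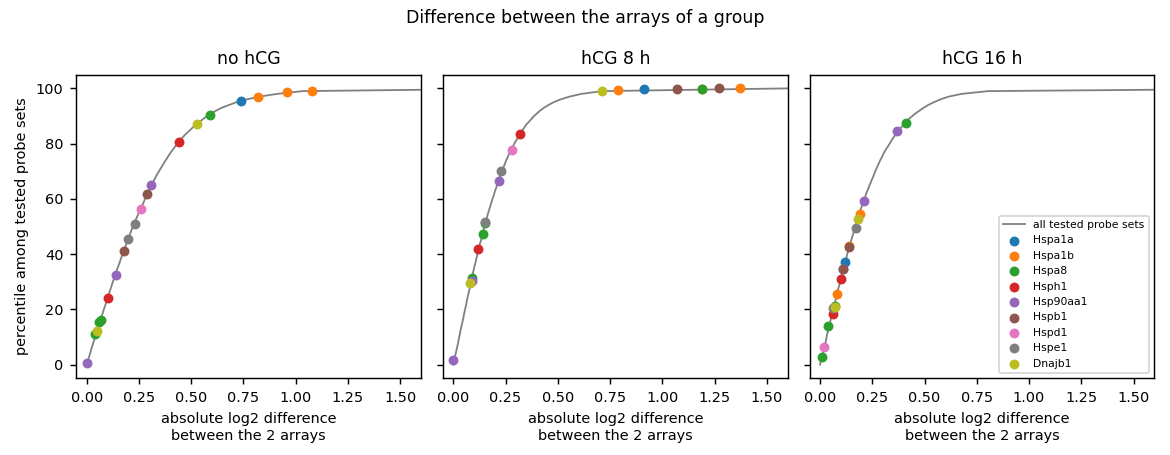
Absolute log2 difference between the 2 arrays of each group (horizontal axis) against its percentile among the 27022 tested probe sets (vertical axis), with coloured points for the chaperone probe sets and a grey curve for all. At 8 h the points of Hspa1a, Hspa1b and Hspb1 lie past 0.71, the 99th percentile, and at 16 h they lie at or under 0.19.

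Control probe sets of the arrays give some measure of RNA quality beside these gaps. The 3′ minus 5′ log2 difference of Gapdh came to 1.44 and 1.17 on the no hCG arrays, 1.40 and 1.44 at 8 h and 1.37 and 1.31 at 16 h. That of actin was between 0.91 and 1.09 on all arrays. The 18S rRNA control probe sets averaged 11.58 and 12.46 on the no hCG arrays, 11.96 and 12.15 at 8 h and 11.42 and 12.57 at 16 h, so replicate 2 was higher in each group. The 18S gap was widest at 16 h. The part of RNA quality or handling in the gaps of the chaperone probe sets was not tested.

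Markers of other cells moved as well. Of 16 tested oocyte markers, 16 fell and 0 rose at 8 h against no hCG, with Gdf9 at −1.92 ± 0.17 and Oosp1 at −1.98 ± 0.17, and the list averaged 11.31 and 11.08 on the no hCG arrays, 9.06 and 8.91 at 8 h and 9.15 and 8.87 at 16 h. At 16 h against 8 h, 6 of the 16 rose and 5 fell, so the list average hides changes in both directions. Gdf9 (1.16 ± 0.17) and Oosp1 (1.19 ± 0.17) were among those that rose. Leukocyte markers rose in 13 of 16 cases at 16 h against 8 h (Lyz2 by 3.32 ± 0.26, while Laptm5 had −0.11 ± 0.18), with list means of 6.49 and 6.69, 6.66 and 6.80, and 8.28 and 8.35 in the same order of groups. Of those that rose, Ptprc, Itgb2 and Coro1a had means at or under the dim limit of 5.62 without hCG and at 8 h. In that order the means were 5.14 and 5.22, 5.62 and 5.32, and 5.24 and 5.37. All passed the limit only through their 16 h arrays, so their calls are not evidence of a change. Oviduct epithelium markers rose in 5 of 6 cases at 16 h against 8 h (Krt8 by 2.44 ± 0.15), with means of 7.39 and 7.64, 6.88 and 7.03, and 8.59 and 8.46. At 8 h against no hCG, 0 of these 6 rose and 2 fell. Of 9 theca and stroma markers, 5 fell and 1 rose (Star, by 6.41 ± 0.26) at 8 h against no hCG. At 16 h against 8 h 5 fell, Star among them. Whether Star marks theca or stroma in these pools was not tested. Of 4 endothelial markers 1 rose at 8 h against no hCG (Cdh5), and of 2 erythrocyte markers limma called 0 in each comparison, with 1, 1 and 0 at an unadjusted p under 0.05. Cdh5 had a mean of 5.48 without hCG and passed the dim limit only through its hCG arrays, so its call is not evidence of a change. Of 9 cumulus and granulosa markers, 3 rose and 4 fell at 8 h against no hCG, 1 rose and 4 fell at 16 h against 8 h, and 3 rose and 6 fell at 16 h against no hCG, with list means of 9.86 to 10.87 over the arrays. Tnfaip6, with a mean of 5.01 without hCG, was among those that rose and likewise passed the dim limit only through its hCG arrays. The part of such marker shifts in the chaperone values was not tested.

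The genes closest to Hspa1a in course were found by Euclidean distance over the 6 arrays, each gene centred on its own mean. Hspa1b lay at 1.15 and, outside the chaperones, the nearest were Scara5, the ferritin receptor gene (1.20), Cited1, a transcriptional coregulator gene (1.32), Prrt4 (1.32), Adgrf5, an adhesion G protein-coupled receptor gene (1.32), and Gstm1, a glutathione transferase gene (1.35). Scara5 had 9.14 and 9.19 without hCG, 12.13 and 12.20 at 8 h and 7.31 and 7.41 at 16 h. It shared the order of the groups with Hspa1a but not the gap between the arrays of a group. Hspb1 and Hsph1 lay farther away at 2.82 and 3.12, and Hspd1 at 4.31. By its dimmest probe set Hspa8 lay at 1.85, nearer than those, and by its brightest at 4.07.

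Among other chaperone genes of the cytosol and mitochondria, listed together with other heat shock factors and stress-responsive genes, changes were spread over both directions. The 10 genes are not among them. Of 86 tested of 97 listed, 17 rose and 13 fell at 8 h against no hCG, a median of 0.04, beside the shares of all genes given above (16.9% and 20.5%). At 16 h against 8 h, 6 rose and 8 fell, a median of −0.14, beside 11.8% and 9.12% of all genes. At 16 h against no hCG 17 rose and 16 fell, a median of −0.02, beside 20.8% in each direction. The same shares of all genes go with the counts of each list. The count at 16 h against 8 h rests on few arrays: it was 3 and 7 when replicate 1 or 2 at 8 h was left out, 7 and 5 when replicate 1 or 2 at 16 h was left out, and 22 with the mean of a gene's probe sets. At 8 h against no hCG the count of 30 came to 18 once replicate 2 at 8 h was left out, and at 16 h against no hCG that of 33 came to 19 once replicate 2 at 16 h was left out.

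Within the HSP70 family and its partners, 5 of 15 tested genes rose and 2 fell at 8 h against no hCG. Of all genes tested, 16.9% rose and 20.5% fell there. Hspa2, an HSP70 gene known for its role in male germ cells, had 6.44 and 6.58 without hCG, 9.54 and 10.01 at 8 h and 7.75 and 7.77 at 16 h, 3 separate groups. It rose by 3.26 ± 0.18 at 8 h (limma, adjusted p = 1.8e-06), fell by 16 h against 8 h (−2.01 ± 0.18, adjusted p = 8.49e-05) and was higher at 16 h than without hCG (1.25 ± 0.18, adjusted p = 0.00051). Unlike Hspa1a, its 16 h arrays lay above those without hCG. Hspa4l, of the HSP110 branch to which Hsph1 also belongs, rose by 1.23 ± 0.17 at 8 h (adjusted p = 0.000353). Hspa14 was lower at 16 h than at 8 h (−0.67 ± 0.20), with 4 of the 15 genes lower and 0 higher in that comparison. Of all genes tested, 9.12% were lower there and 11.8% higher.

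The small heat shock protein list had 7 tested genes, of which 1 rose (Cryab) and 0 fell at 8 h against no hCG. Cryab, which encodes alpha-B crystallin, a relative of the Hspb1 protein, had 4.84 and 5.28 without hCG, 7.46 and 6.78 at 8 h and 4.75 and 4.88 at 16 h. It rose by 2.06 ± 0.24 at 8 h and fell by 16 h against 8 h (−2.31 ± 0.24). Its means at 16 h and without hCG, 4.82 and 5.06, lie under the limit of 5.62 for dim probe sets, so both sizes are uncertain. With a mean of 5.67 over the 6 arrays, it passed that limit only through its 8 h arrays, so its calls are not evidence of a change. Between its 8 h arrays replicate 1 was the higher by 0.68. Hspb11 was higher at 16 h than at 8 h (0.87 ± 0.18, adjusted p = 0.00846).

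Of 15 J-domain genes, 4 rose and 2 fell at 8 h against no hCG, and 0 rose and 1 fell at 16 h against 8 h. Shares of all genes tested were 16.9% up and 20.5% down, then 11.8% up and 9.12% down. Dnaja4 had 8.80 and 8.89 without hCG, 10.57 and 10.39 at 8 h and 9.94 and 10.03 at 16 h, and rose by 1.63 ± 0.15 at 8 h (adjusted p = 3.38e-05). Dnajb2 rose by 0.94 ± 0.16 at 8 h (adjusted p = 0.00129). Dnajc9, a histone co-chaperone gene, fell in every comparison, by −0.80 ± 0.18 at 8 h against no hCG, −1.08 ± 0.18 at 16 h against 8 h and −1.88 ± 0.18 at 16 h against no hCG.

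Of 13 tested HSP90 co-chaperone genes, 3 rose and 2 fell at 8 h against no hCG, and 0 rose and 2 fell at 16 h against 8 h. Beside them, 16.9% of all genes tested rose and 20.5% fell in the first comparison, and 11.8% and 9.12% in the second. The falls at 16 h against 8 h were in Stip1, whose protein links HSP70 to HSP90 (−0.71 ± 0.16, adjusted p = 0.0147), and Fkbp4, an immunophilin gene of steroid receptor complexes (−0.73 ± 0.16, adjusted p = 0.012). Fkbp5, the related immunophilin gene, had 12.61 and 12.54 without hCG, 13.16 and 13.39 at 8 h and 13.52 and 13.63 at 16 h. It rose by 0.70 ± 0.16 at 8 h against no hCG and was 1.00 ± 0.16 higher at 16 h than without hCG. Aarsd1 moved the other way, with −1.04 ± 0.17 at 16 h against no hCG, and Chordc1 rose by 0.79 ± 0.17 at 8 h.

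Few genes of the CCT chaperonin, which folds actin and tubulin, and of its partner prefoldin changed. Of 14 tested, 0 rose and 1 fell at 8 h against no hCG (Pfdn4, −0.84 ± 0.18), 0 were called at 16 h against 8 h, and 0 rose and 2 fell at 16 h against no hCG (Pfdn4, −0.79 ± 0.18, and Pfdn1, −0.75 ± 0.18). In the limma fit at 16 h against 8 h, 0 had an unadjusted p under 0.05 upward and 1 downward.

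Of 15 tested mitochondrial chaperone and protease genes, 1 rose and 5 fell at 8 h against no hCG, with a list median of 0.09. At 16 h against 8 h, 5 rose and 0 fell, with a median of 0.05. All genes tested had shares of 16.9% up and 20.5% down, then 11.8% up and 9.12% down. At an unadjusted p under 0.05 limma gave 4 upward and 5 downward at 8 h against no hCG, and 6 upward and 1 downward at 16 h against 8 h. Hscb, a co-chaperone gene of iron-sulfur cluster assembly, had 9.63 and 9.53 without hCG, 8.31 and 8.29 at 8 h and 8.81 and 8.83 at 16 h, a change of −1.28 ± 0.15 at 8 h against no hCG and of 0.51 ± 0.15 at 16 h against 8 h. Lonp1, the matrix protease gene, was higher at 16 h than at 8 h (0.79 ± 0.15) and than without hCG (1.13 ± 0.15). Clpx, the unfoldase gene of another matrix protease, rose by 1.19 ± 0.23 at 8 h, whereas Clpb had −0.72 ± 0.15 and Spg7 −0.66 ± 0.15, and Spg7 was 0.66 ± 0.15 higher at 16 h than at 8 h. All 16 tested oocyte markers fell in the comparison of 8 h with no hCG, and their part in these values was not tested.

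Of 7 tested other heat shock factor and stress-responsive genes, 3 rose and 1 fell at 8 h against no hCG, and 0 were called at 16 h against 8 h, where limma gave 1 with an unadjusted p under 0.05. Nfe2l2, the oxidative stress transcription factor gene, rose by 1.01 ± 0.19 at 8 h and was 1.26 ± 0.19 higher at 16 h than without hCG. Its partner in that pathway Sqstm1, an autophagy receptor gene, had 0.87 ± 0.15 and 1.26 ± 0.15, and the heme oxygenase gene Hmox1 0.98 ± 0.17 at 8 h. Sqstm1 had 11.96 and 11.86 without hCG, 12.83 and 12.73 at 8 h and 13.12 and 13.23 at 16 h, so its 16 h arrays were the highest, where those of Hspa1a were the lowest.

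**Figure D4:**
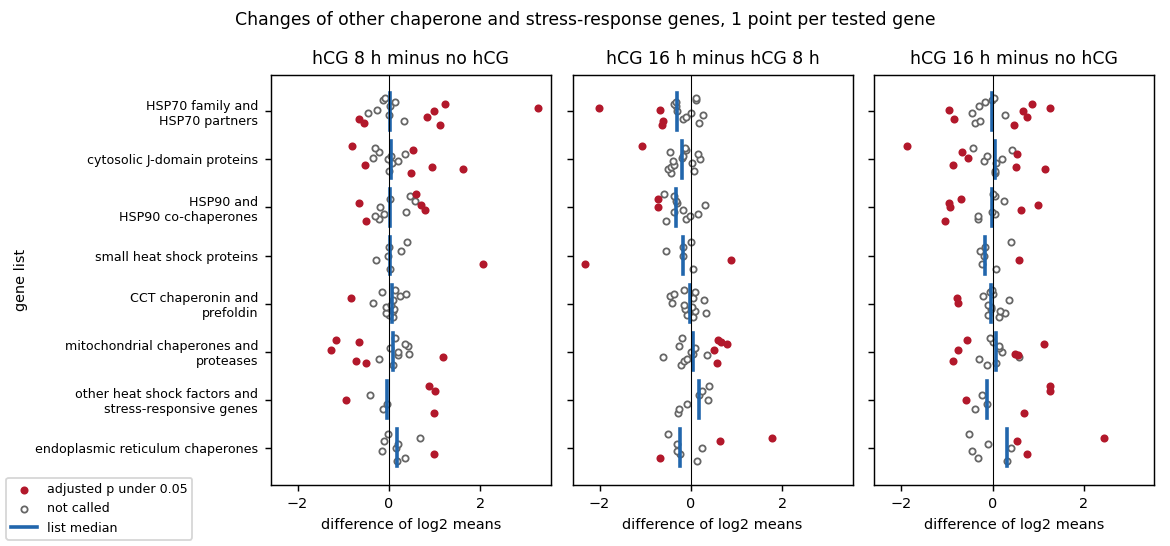
Differences of log2 group means (horizontal axis) for each tested gene of the 8 lists of other chaperone and stress-response genes, those of the endoplasmic reticulum included, with 1 point per gene, filled at an adjusted p under 0.05, and a bar at the list median. Hspa2 at 3.26 and Cryab at 2.06 stand out upward at 8 h against no hCG, and list medians lie between −0.33 and 0.32 in all comparisons. Cryab passed the dim filter only through its 8 h arrays.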

How the data were processed

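Total RNA of pooled cumulus-oocyte complexes was hybridised to 1 Affymetrix array per sample, with biotin as the label. The values are log2 intensities per probe set as deposited by the authors (3.32 to 15.53, array medians 6.15 to 6.27), and the software, background correction and normalization behind them are not given in the sources used here. Gene names came from the platform annotation: of 45101 probe sets, 34945 had 1 symbol, 932 several and 9160 none, and 64 were controls. No detection calls were used.

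The deposited log2 values of all 6 arrays were fitted with limma 3.58.1 (lmFit, eBayes) in R 4.3.3, without controls and without probe sets whose mean was under the 40th percentile (5.62), which left 27022. P-values are two-sided. With 3 residual degrees of freedom (9.43 after moderation), they measure only the spread between these pools. The fit was also run on simulated arrays with gaussian spread and few changed probe sets. Those differ from these data, so that run does not bear on the calls here. The genes and lists were chosen with earlier results of these data known. All 10 genes are named, and of each chaperone or stress-response list the 2 called genes with the largest change in each comparison. Of a marker list, genes among its 2 brightest are named, not always both, and genes that passed the dim filter only through some groups. The 5 genes nearest to Hspa1a are named as well. Cdh5, where a count of 1 is named, was picked after its value was seen. Alternatives covered normalization, the dim filter, the groups fitted, the intensity trend, the replicate block, the choice of probe set and each array left out. Sequences are from RefSeq, build GRCm38.p6.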

Additional observations from a re-analysis of the deposited data

How the results depend on the processing

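Across 15 alternatives, Hspa1a was called in all 3 comparisons, Hspa1b and Hspb1 at 8 h against no hCG, and Hspa1b and Hsph1 at 16 h against 8 h. In each comparison 3 of the 15 are 1 fit, since leaving out either array of the third group equals fitting the 2 groups alone. For single chaperone genes, 371 values kept direction and side of the threshold, 10 lost the call, 11 gained it and 13 turned sign. With the mean of a gene's probe sets in place of the brightest, 6 of the 9 chaperone genes were called at 16 h against no hCG (3 by the brightest), and 22 other chaperone and stress-response genes at 16 h against 8 h (14 by the brightest). The cause was not tested. With each array left out in turn, called probe sets ranged from 6109 to 9450 at 8 h against no hCG, 2518 to 6340 at 16 h against 8 h and 7312 to 10345 at 16 h against no hCG, and called genes of the 9 from 3 to 4, 3 to 5 and 1 to 4. The lowest of the last 2 came without replicate 1 of the 16 h group. Other chaperone and stress-response genes called ranged from 18 to 28, 3 to 18 and 19 to 30.

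Changes near 0 that were not called turned sign. After quantile normalization they were −0.0937 for Hspd1 and −0.0216 for Dnajb1 at 8 h against no hCG, and −0.0570 for Hspa8 and −0.0112 for Hspd1 at 16 h against no hCG. With arrays centred on their medians, Hspe1 had 0.0208 at 8 h against no hCG. With the mean of probe sets, Dnajb1 had −0.13 at 8 h and Hspa8 −0.34 at 16 h against no hCG. With arrays left out, the change at 8 h against no hCG ranged from −0.11 to 0.16 for Hspd1, −0.27 to 0.0451 for Hsp90aa1 and −0.13 to 0.0918 for Hspe1, and that at 16 h against 8 h from −0.0281 to 0.25 for Hspd1.

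In the main fit the replicate numbers were not used as pairs, and whether arrays of the same number shared a source was not tested. The differences between replicates 1 and 2 correlated at 0.47 (8 h and no hCG), 0 (16 h and no hCG) and 0.13 (16 h and 8 h). With the replicate number as a block, 10117, 5812 and 11045 probe sets were called, and Hspb1 became called at 16 h against no hCG (limma, adjusted p = 0.0453), with no other change of a call among the 9 genes. Detection calls were not used, so changes of dim genes such as Cryab are uncertain.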

Other observations

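Chaperones of the endoplasmic reticulum fold secreted and membrane proteins. Of 9 tested, 1 rose and 0 fell at 8 h against no hCG, 2 rose and 1 fell at 16 h against 8 h, and 3 rose and 0 fell at 16 h against no hCG. The list medians were 0.18, −0.23 and 0.32 in turn. Pdia4, a disulfide isomerase gene, had 9.98 and 10.59 without hCG, 10.65 and 11.25 at 8 h and 12.68 and 12.77 at 16 h. It was 1.77 ± 0.25 higher at 16 h than at 8 h (limma, adjusted p = 0.000917) and 2.44 ± 0.25 higher than without hCG (adjusted p = 4.39e-05). Dnajb9, a J-domain gene of that compartment, rose by 0.98 ± 0.18 at 8 h against no hCG (adjusted p = 0.0021). Dnajb11, another of these, was lower at 16 h than at 8 h (−0.67 ± 0.15, adjusted p = 0.0139). Leukocyte and oviduct epithelium markers rose at 16 h as well, and their part in these values was not tested.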
